A study of Rattus norvegicus with 18 samples.

Results

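The cell cycle regulators examined here were 10 genes, namely the D-type cyclins Ccnd1, Ccnd2 and Ccnd3, the kinase Cdk6, cyclin E (Ccne1), the CDK inhibitors Cdkn1a and Cdkn1b, the pocket protein Rb1 and the transcription factors E2f1 and Mybl2. They were found by gene name in 9 lists of N6-methyladenosine (m6A) peaks, where 7 of the 10 had at least 1 peak, against 4846 genes with a peak in the lists as a whole. Those 7 genes held 53 of 32961 peaks. Ccnd2, E2f1 and Rb1 had none in any library.

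The lists came from MeRIP-seq, in which fragmented RNA is pulled down with an antibody against m6A and sequenced beside input RNA of the same sample. All samples were H9c2, a line of embryonic rat heart cells that keeps dividing in culture and stands in for cardiomyocytes. The Control group was left untreated, the Model group received 50 µM phenylephrine (PE) for 24 h, an adrenergic agonist that makes such cells enlarge, and the SYD group received the same PE together with Shen-Yuan-Dan (SYD), a herbal capsule, over 24 h. The SYD dose is 2 mg/mL in the sample labels, while the design text of the series has 1 mg/mL. The sample titles read SYD_H, and the paper's methods give 2 mg/mL for its SYD-H group and 1 mg/mL for SYD-M. Each group had 3 replicates, numbered 1 to 3, with 1 peak list per replicate made from its pulled-down and input libraries. Nothing in the labels says that replicates were separate cultures, so the p-values below measure the spread between these samples, which may be technical.

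m6A is set on mRNA mainly by the METTL3-METTL14 complex, and reader proteins that bind it can shorten the life of the transcript or change its translation. The genes described here form the pathway that commits a cell to DNA synthesis. D-type cyclins with CDK6 or its close relative phosphorylate the RB protein, which then releases E2F factors, and these switch on cyclin E and Mybl2 among many targets. The inhibitors p21 (Cdkn1a) and p27 (Cdkn1b) hold the kinases back. In the adult heart most cardiomyocytes have left this cycle.

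The lists differed in length and in scale, and both facts touch every result below. They held 3629 to 5556 peaks in the Control group, 2883 to 4476 in the Model group and 2508 to 2786 in the SYD group. The median fold enrichment of a list, that is the pull-down signal of a peak over its background as the MACS peak caller computes it, ran from 7.29 to 10.4 in the Control group, from 9.71 to 11.3 in the Model group and from 21.4 to 30.9 in the SYD group. The median score, which is 10 times the negative log10 of the peak's p-value, went the other way, from 50.8 to 62.8 in the Control group, 48.7 to 54.4 in the Model group and 41.5 to 43.5 in the SYD group. The lists carry neither read depth nor RNA levels. A missing peak therefore means only that none was called, and fewer methylated copies cannot be told apart from fewer copies of the RNA, nor fewer cells of a kind from less RNA per cell. Of the cardiac marker genes 3 of 12 had a peak (Tnnt2 in all 9 libraries, Nkx2-5 and Gata4), against 0 of 8 skeletal myoblast, 1 of 6 fibroblast, 0 of 4 endothelial and 0 of 3 blood genes, which says nothing of their RNA levels.

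Peaks that overlapped by at least 1 base in different libraries were joined into sites, and the regulators then had 13 sites out of 9022. A single one of the 13, on Ccne1, had a peak in all 9 libraries (7.69%, against 10.2% of all sites), and 4 had a peak in 1 library only. Mybl2 carried 5 sites, a number reached or passed by 5.43% of the genes with a peak, while Cdk6 and Cdkn1a had 2 each and Ccnd1, Ccnd3, Ccne1 and Cdkn1b had 1 each. Of the 9 sites seen in more than 1 library, 7 had the same start and end in every library that held them (77.8%, against 77.3% over all such sites). What set these shared bounds was not tested, so they do not measure how exactly a peak was placed. Whether nearby sites on 1 transcript are separate methylated places was not tested either.

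**Figure D1:**
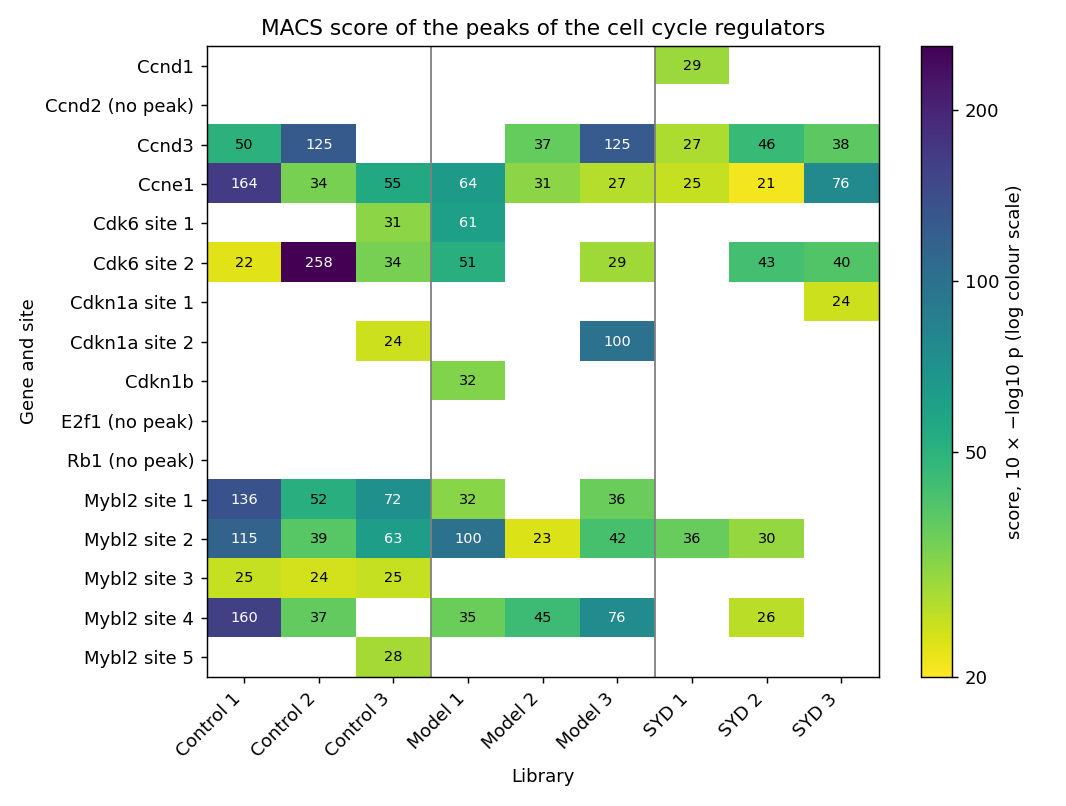
Score of every peak of the cell cycle regulators, with the sites in rows, the 9 libraries in columns and the score (10 times the negative log10 p) written in each cell and shown on a log colour scale. Empty cells had no peak; the Ccne1 row is filled in all 9 libraries, and the Mybl2 rows are filled mostly on the left, in the Control and Model libraries.

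Among the D-type cyclins, which start the pathway by activating CDK4 and CDK6, Ccnd3 was the one with a widely held site. It lay at chr9:15410634-15410943 of the rat genome rn6 and had a peak in 2 of 3 Control, 2 of 3 Model and 3 of 3 SYD libraries. The fold was 6.07 and 9.22 in Control 1 and 2, 10.4 and 15.9 in Model 2 and 3, and 22.8, 17.5 and 21.8 in SYD 1 to 3. The raw folds of the SYD libraries were all above those of the others, yet each of them was below the median of its own list, at 0.739, 0.815 and 0.720 times that median, as was Control 1 at 0.833 times. Control 2 stood at 1.03 times its median and Model 2 and 3 at 1.08 and 1.45 times. The scores were 50.1, 125, 36.8, 125, 27.4, 46.1 and 38.0 in the same order of libraries, so the strongest evidence came from Control 2 and Model 3. Model overlapped both other groups, while both Control scores were above all 3 SYD scores. Ranked within its own list, the peak exceeded 41.4% to 78.2% of the scores in Control and 25.8% to 52.9% in SYD, which overlapped.

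Ccnd1, the D-type cyclin most often linked to growth signals, had a single peak, at chr1:218099950-218100325 in SYD 1, with a score of 29.5 and a fold of 21.5. That fold was 0.696 times the median of its list. Ccnd2, whose forced expression makes cardiomyocytes of mice divide, had no peak in any list.

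Cdk6, the kinase partner of the D-type cyclins, had sites at chr4:27785647-27786308 and chr4:27966166-27966398. The first had a peak in Control 3, with a score of 31.1 and a fold of 11.1, and in Model 1, with 61.3 and 15.3, and in no SYD library. The second was held by 3 Control, 2 Model and 2 SYD libraries. Its fold was 6.05, 22.3 and 8.11 in Control 1 to 3, 11.5 and 8.40 in Model 1 and 3, and 24.2 and 24.7 in SYD 2 and 3. The peak in Control 2 stood apart from the other Control libraries, with a score of 258 against 22.4 and 34.0, and was the strongest of all 53 peaks of the regulators. Against the median of its list that peak was 2.49 times higher, while the other 6 lay between 0.766 and 1.13 times theirs, with SYD 2 at 1.13 and SYD 3 at 0.818.

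Both inhibitors of the cyclin-dependent kinases had few peaks. Cdkn1a, which encodes p21 and is induced by p53, had 1 peak in 1 library of each group. The peaks of Control 3 (score 24.2, fold 6.30) and Model 3 (score 100, fold 8.69) shared the site chr20:6356423-6356895, whereas that of SYD 3 (score 24.4, fold 36.6) lay at chr20:6351458-6351547, on another annotated transcript. Cdkn1b, which encodes p27, had 1 peak, at chr4:168689536-168690049 in Model 1, with a score of 32.4 and a fold of 9.60. Rb1, the brake that the D-type cyclins lift, and E2f1, which it restrains, were without a peak in all 9 libraries.

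Ccne1, the cyclin that drives CDK2 at the start of DNA synthesis, was the only regulator with a peak called in every library. Its site at chr1:94485832-94486476 always ended at the same base, while the start took 8 different positions in 9 libraries, and the peaks were 541 to 645 bases long. The fold was 12.3, 9.52 and 13.0 in Control 1 to 3, 14.2, 12.0 and 10.8 in Model 1 to 3, and 32.4, 18.8 and 39.3 in SYD 1 to 3. Control and Model overlapped, and all SYD values were higher than both. As a multiple of the median of each list, however, the groups were mixed, with 1.68, 1.06 and 1.25 in the Control group, 1.26, 1.24 and 0.984 in the Model group, and 1.05, 0.876 and 1.30 in the SYD group.

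The score of the Ccne1 peak was 164, 33.8 and 54.6 in the Control group, 64.2, 31.2 and 26.6 in the Model group, and 25.2, 20.9 and 75.9 in the SYD group. Each group thus had 1 library well above the other 2, and the 3 ranges overlapped. In SYD 2 the peak was close to the lowest score that any list holds, 20, with 3.42% of that library's peaks below it. The deposited FDR was 100% for every peak of every list.

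The fold of Ccne1 was compared between groups with limma on log2 values over the 917 sites with a peak in all 9 libraries, after each library had been centred on its median over those sites. Centring removed a shift shared by the sites, which on the log2 scale was 0.19 for Model minus Control, 1.14 for SYD minus Model and 1.33 for SYD minus Control. On that centred scale Ccne1 differed by -0.097 in Model minus Control (SE 0.243, 95% interval -0.62 to 0.42, limma adjusted p = 0.997). It differed by 0.092 in SYD minus Model (SE 0.243, -0.43 to 0.61, adjusted p = 0.945) and by -0.0056 in SYD minus Control (SE 0.243, -0.53 to 0.51, adjusted p = 0.994). None of the 3 differences was larger than the spread between replicates, and the intervals reach from -0.62 to 0.61 on the log2 scale. Over all 917 sites limma called 0 (0.0%) in each of the 3 comparisons after adjustment, with 22, 67 and 78 at an unadjusted p under 0.05 in the order above. Without centring, Ccne1 was called higher in SYD by 1.24 against Model (adjusted p = 0.0027) and by 1.33 against Control (adjusted p = 0.00091), as were 826 and 880 of the 917 sites.

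**Figure D2:**
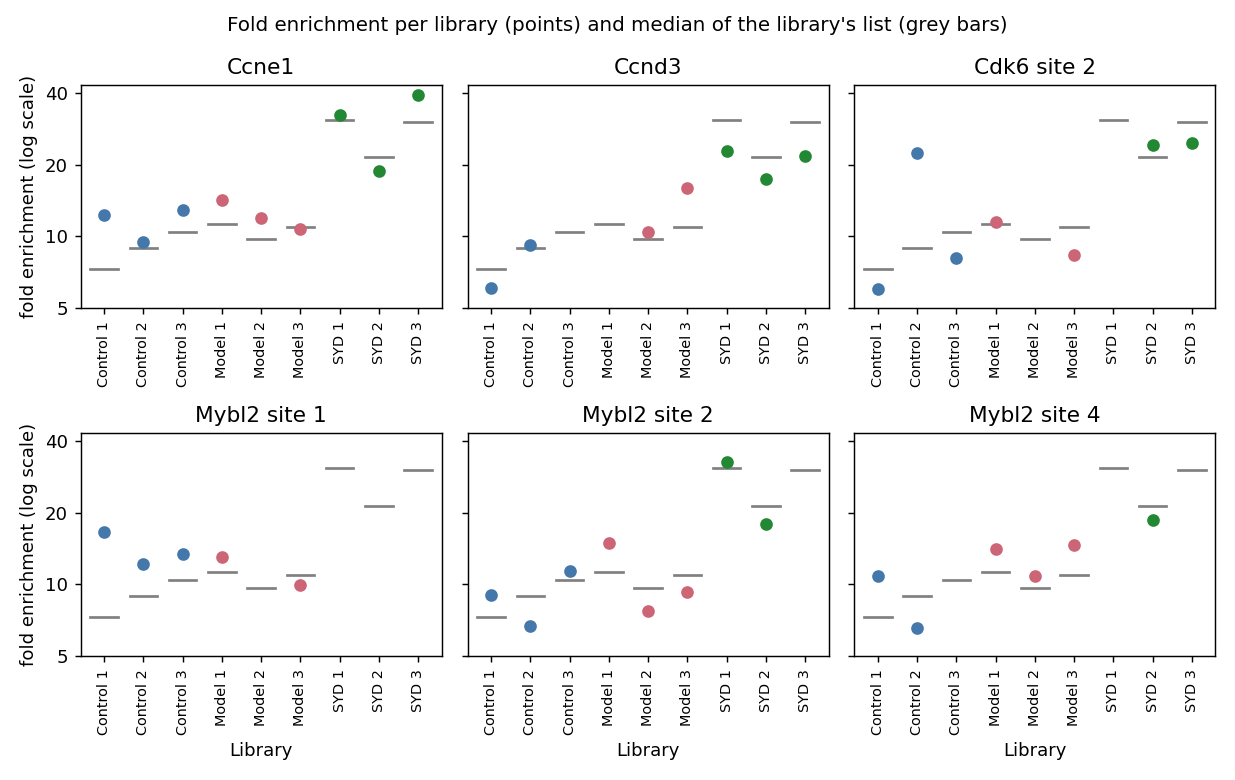
Fold enrichment (log axis) of the 6 sites of the regulators that were held by at least 5 libraries, with 1 point per library in which the peak was called, coloured by group, and the median fold of that library's whole list as a grey bar. In the SYD libraries both the points and the bars sit high; Ccnd3 lies below the bar in all 3 SYD libraries, and Mybl2 site 1 has no SYD point.

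The other widely held sites were missing from some libraries. A wider fit, added after seeing the data, took the 1829 sites with a peak in at least 2 libraries of each group. Ccnd3, Cdk6 site 2 and Mybl2 site 2 entered it. Mybl2 site 1, with a peak in 0 SYD libraries, and site 4, with a peak in 1, could not. The wider fit called 0 sites in every contrast. The largest difference among the regulators was that of Ccnd3, 0.55 in Model minus Control (95% interval -0.079 to 1.18, adjusted p = 0.999) and -0.62 in SYD minus Model (95% interval -1.19 to -0.042, unadjusted p = 0.037, adjusted p = 0.689). For Cdk6 site 2 the centred differences were -0.39 and 0.31 in the same contrasts, and for Mybl2 site 2 they were 0.014 and 0.13, all with an adjusted p over 0.05. A missing peak gives no value in this fit, so it describes the libraries in which the peak was called.

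Mybl2 was the regulator with the most peaks, 23 of the 53, and the only one whose number of peaks separated groups without overlap in the lists as deposited. It encodes B-Myb, a factor that joins the MuvB complex to switch on genes of late S phase and mitosis. Control 1 to 3 had 4 peaks each, Model 1 to 3 had 3, 2 and 3, and SYD 1 to 3 had 1, 2 and 0, which gives means of 4 ± 0, 2.67 ± 0.577 and 1 ± 1 (SD, n = 3). Control was above Model and above SYD in every library, whereas Model and SYD shared the value 2. That separation ended when every list was shortened to its 2508 peaks of highest score, with 3, 3 and 2 peaks in Control, 1, 1 and 2 in Model and 1, 2 and 0 in SYD, so that Control shared the value 2 with both. With a score of at least 50 the numbers were 3, 1 and 2, then 1, 0 and 1, then 0, 0 and 0, and Control overlapped Model but not SYD. The smallest two-sided p that an exact test of 3 against 3 libraries allows is 0.10.

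The same pattern was read against all genes with a peak in at least 3 of the 6 libraries compared. Of the 4 regulators among them, Mybl2 was the 1 with more peaks in every Control than in any Model library, as were 1.88% of all 2822 genes tested. Against SYD it was again the 1 of 4 with more peaks in every Control library, as were 10.9% of 2462 genes. From Model to SYD 0 of 4 regulators separated in this direction, against 6.22% of 2299 genes. These shares cover genes with any number of sites. Of all genes with a peak 57.9% had 1 site, against 5 for Mybl2, so most had fewer ways to separate than Mybl2.

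The 5 sites of Mybl2 lay on 1 annotated transcript of chromosome 3, and they behaved differently. Site 1, at chr3:159421671-159421884, had a score of 136, 52.2 and 71.8 in the Control libraries, 31.6 in Model 1 and 35.9 in Model 3, with no peak in Model 2 and in the SYD group. All 3 Control scores were above both Model scores. Its folds were 16.7, 12.2 and 13.5 in the Control group against 13.0 and 9.94 in the Model group, or 2.29, 1.36 and 1.30 times the list medians against 1.15 and 0.906 times.

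Site 2 lay 4063 bases further along the genome, at chr3:159425948-159426041. It was the Mybl2 site held by the most libraries, 8 of 9, and by 2 of 3 in the SYD group. Its scores were 115, 38.8 and 62.6 in the Control group, 100, 23.0 and 42.1 in the Model group, and 36.1 and 30.03 in SYD 1 and 2. The folds were 9, 6.70 and 11.4, then 14.9, 7.72 and 9.29, then 32.6 and 17.9, and the groups overlapped once each value was set against the median of its list (0.749 to 1.24, 0.795 to 1.33, and 1.06 and 0.837).

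Site 3, at chr3:159428173-159428244, was seen in the Control group alone, and there it was weak and even. Its scores were 25.0, 23.9 and 25.1 and its folds 6.90, 7.74 and 8.04. In each Control list 11% to 13.5% of the peaks had a lower score, and the lowest score in the lists was 20.

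Site 4, at chr3:159429626-159429718, was held by 2 Control, 3 Model and 1 SYD library. Its scores were 160 and 37.0 in Control 1 and 2, 35.5, 44.8 and 75.6 in Model 1 to 3, and 26.0 in SYD 2, with folds of 10.9, 6.55, 14.1, 10.9, 14.6 and 18.6. Site 5, at chr3:159440636-159441061, was a single peak of Control 3, with a score of 28.3 and a fold of 8.80. SYD 3 had no Mybl2 peak of any kind, although its list of 2786 peaks was the longest of the SYD group.

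**Figure D3:**
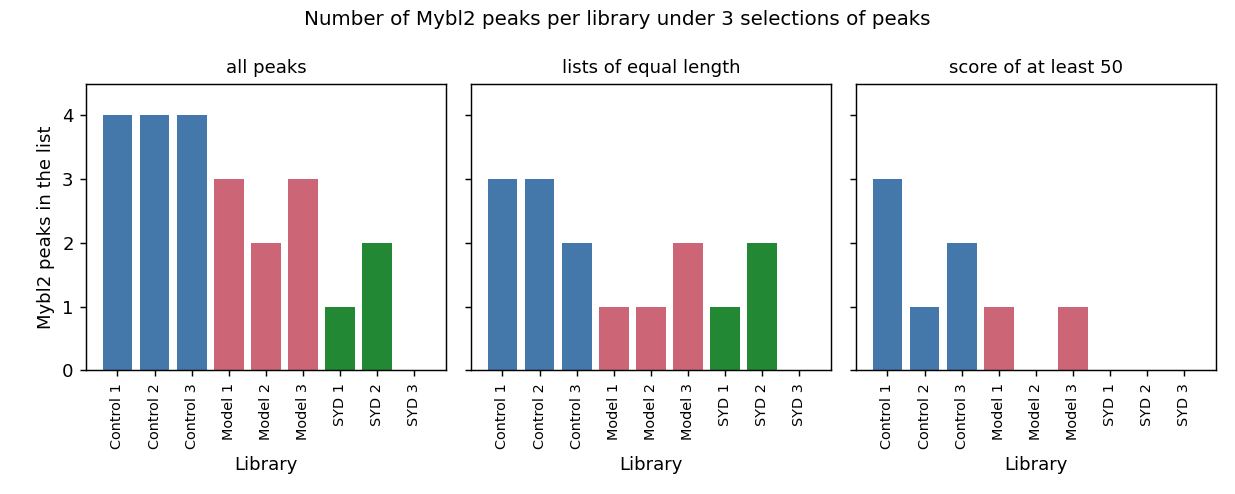
Number of Mybl2 peaks in each of the 9 libraries (bars, coloured by group) among all peaks, among the 2508 peaks of highest score of each list, and among peaks with a score of at least 50. Control libraries hold 4 peaks each on the left; with lists of equal length they hold 3, 3 and 2, the Model libraries 1, 1 and 2 and the SYD libraries 1, 2 and 0.

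For the comparison of groups a site was called when all 3 libraries of one group and none of the other had a peak. The sites tested were those with a peak in at least 3 of the 6. A called site thus entered the tested sites only through the group that held it. The shares below are descriptive and carry no p-value. From Control to Model 1 of 7 tested sites of the regulators was called as held by Control, Mybl2 site 3, against 1.69% of 4090 sites tested. In the opposite direction 0 of 7 were called, against 0.367%. The lowest score of Mybl2 site 3 among its libraries, 23.9, was near the median of 24.0 over the 69 sites called in this direction.

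From Model to SYD, the contrast that bears on the treatment, 0 of 5 tested sites of the regulators were called as held by Model, against 4.8% of 3106 sites, and 0 as held by SYD, against 0.29%. Mybl2 site 4 had a peak in all 3 Model libraries and in SYD 2. Mybl2 site 1, with a peak in Model 1 and 3 and in no SYD library, was in too few libraries to be tested. Without Model 2 site 1 was called, and without SYD 2 site 4 was called, each giving 1 site in place of 0.

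From Control to SYD, which differ in both PE and SYD, 2 of 7 tested sites were called as held by Control, against 8.1% of 3419 sites. These were Mybl2 sites 1 and 3, which lie on 1 transcript and so are not separate regulators. As held by SYD 0 were called, against 0.263%. The lowest score of site 1, 52.2, exceeded that of 90.6% of the 277 sites called in this direction, whose median was 26.5. Both sites were called whichever library was left out. With every list shortened to its 2508 peaks of highest score, site 3 dropped out of the Control lists. Site 1 was then called against Model as well as against SYD. The call against Model arose because the cut removed the site's peaks in Model 1 and 3, which had scores of 31.6 and 35.9. Over all sites, those held by Control against SYD fell from 277 to 43 and those held by SYD rose from 9 to 28. Between Model and SYD the same step took the sites held by Model from 149 to 35 and those held by SYD from 9 to 30, and both directions then came close to each other.

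The regulators together had 7, 7 and 8 peaks in Control 1 to 3, 7, 4 and 7 in Model 1 to 3, and 4, 5 and 4 in SYD 1 to 3, or 7.33 ± 0.577, 6 ± 1.73 and 4.33 ± 0.577 (SD, n = 3). The number fell along with the length of the lists, and as a share of each list it was 0.169% ± 0.0374, 0.154% ± 0.0144 and 0.163% ± 0.0213. The number of the 10 genes with any peak was 4 in each Control and SYD library and 3 to 5 in the Model libraries. As a share of all genes with a peak in the library, this was 0.114% to 0.165% in Control and 0.136% to 0.185% in Model. In SYD, where fewer genes had a peak, it was 0.2% to 0.224%. The SYD libraries thus had as many of the genes as the Control libraries and fewer peaks. That fall came from Mybl2, whose mean was 4 peaks in Control and 1 in SYD. Cdk6 also fell, from 1.33 to 0.667, but Ccnd3 rose from 0.667 to 1 and Ccnd1 from 0 to 0.333. The means of Ccne1 and Cdkn1a were the same in both groups, so the regulators without Mybl2 showed no fall from Control to SYD. In lists of equal length the means of all regulators were 4.33 ± 1.53, 3.67 ± 0.577 and 4.00 ± 0, and the 3 groups overlapped.

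**Figure D4:**
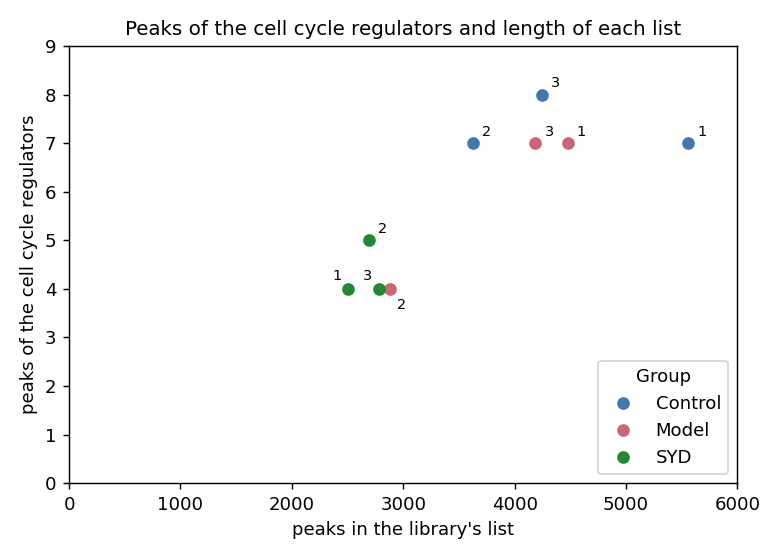
Peaks of the 10 cell cycle regulators in each library (vertical axis) against the number of peaks in that library's whole list (horizontal axis), with 1 point per library, coloured by group and marked with the replicate number. The 3 SYD libraries and Model 2 have the shortest lists, of 2508 to 2883 peaks, and 4 or 5 peaks of the regulators, while the other 5 libraries have 7 or 8.

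Around these genes, 43 of 130 other cell cycle genes had a peak, in 22 to 30 genes per Control library, 23 to 28 per Model library and 20 to 22 per SYD library. Of the other genes of the RB, E2F, DREAM and MYB group 8 of 18 had a peak (E2f2, E2f3, E2f6, E2f7, E2f8, Rbbp4, Mybl1 and Foxm1), none of them in all 9 libraries. Other cyclins had a peak in 5 of 17 genes, other CDK inhibitors in 1 of 6 (Cdkn2c), MYC and its partners in 5 of 6, and replication licensing in 3 of 19. Genes with a site in all 9 libraries were Cdk9 and Cdk13, which act on transcription, the helicase subunit Mcm2, the mitotic brake Wee1, the APC/C activator Fzr1, the ubiquitin ligase subunit Fbxw7, Mycn and Mnt of the MYC network, and the topoisomerase Top2a. Cdk13 and Mcm2 were the firmest, with a lowest score of 185 and 178 over the 9 libraries, against 20.9 for Ccne1.

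Of these other genes, 3 had a site called by presence. Myc, a driver of cell growth and division, had a site at chr7:102588556-102589234 that was held by Model against SYD. This was 1 of 29 tested sites of these genes, a share below the 4.8% of all sites. The Myc site had scores of 39.6, 38.8 and 25.6 in Model 1 to 3, and 51.1 and 67.5 in Control 1 and 3. No SYD library had a peak there, but SYD 3 had a peak at the other of the 2 sites of Myc. Mad1l1, of the spindle checkpoint, had a site at chr12:16430184-16430265 with scores of 37.6, 39.2 and 32.5 in the Control group and 44.8 in Model 3. No SYD library had a peak at that site, but Mad1l1 had 7 sites, and SYD 2 and SYD 3 had a peak elsewhere on the gene. Cul1, the scaffold of the SCF ubiquitin ligase, had a site at chr4:77212203-77212359 with scores of 72.1, 32.0 and 36.1 in the Control group, 30.4 in Model 2, 64.9 in Model 3 and none in the SYD group. The last pair made up 2 of 26 tested sites held by Control against SYD, a share near the 8.1% of all sites. From Control to Model 0 of 36 were called in either direction, against 1.69% and 0.367% of all sites.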

How the data were processed

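MeRIP-seq of 18 samples (9 pull-down, 9 input) was deposited as 9 peak lists, each assigned here to its pull-down sample. Per the labels and the paper's methods, trimming by the authors used cutadapt 1.9.3 and alignment to rn6 used HISAT2 2.0.4, after which MACS called peaks in each replicate and those on mRNA were annotated. The deposited score is 10 times the negative log10 p-value of MACS, the deposited fold enrichment is a ratio scaled by MACS within each replicate, and the deposited FDR, a percent, was 100 for every peak. Depth is unknown. The lists hold no columns of group comparisons.

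Peaks were merged into sites with pandas 2.3.3 (Python 3.11.15), with starts written from 1, and folds were tested with limma 3.58.1 (R 4.3.3), adjusted by Benjamini-Hochberg over all sites tested (called under 0.05). Scripts were tested on simulated data. The genes and the lists of other genes and markers were chosen with earlier results of these data known. Named beside the 10 genes are other cell cycle genes with a called site or, up to 10, a site in all 9 libraries. All 7 gene IDs with a peak matched RefSeq. Alternatives were lists of equal length, a minimum score of 50, a stricter overlap, genes in place of sites, at least 2 libraries against none, other fold settings and each library left out. Exon or UTR position was not analysed here.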

Additional observations from a re-analysis of the deposited data

How the results depend on the processing

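Site calls of the regulators moved with the list. For Control against SYD they went from 2 to 1 with a score of at least 50 and with lists of equal length. For Control against Model the count stayed at 1 under both, with Mybl2 site 1 in place of site 3, since both removed the peaks of site 1 in Model 1 and 3. These counts concern the 2 comparisons with Control. With genes in place of sites both counts were 0. For Model against SYD the count was 1 with at least 2 libraries against none, and 0 to 1 with a library left out. The mean number of peaks of the regulators was 3.67, 2.33 and 0.333 for Control, Model and SYD with a score of at least 50, and 4.33 and 3.67 for Control and Model with lists of equal length.

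Without centring, the Ccne1 difference was 0.093 for Model minus Control, 1.24 for SYD minus Model and 1.33 for SYD minus Control, with 0, 826 and 880 sites called. With the score in place of the fold it was -0.49, 0.83 and 0.34 in the same order. With a library left out it ran from -0.23 to 0.052, from -0.061 to 0.23 and from -0.11 to 0.11 in the same order, with 0 sites called. Apart from the fit without centring, the adjusted p of Ccne1 was 0.627 to 0.999 under all alternatives run. At a score of at least 50 Ccne1 was no longer in every library and had no value. Same-numbered libraries correlated from -0.05 to 0.26, over 0.1 in 1 of 9 pairs, so the numbers were not taken as pairs, and a replicate block left the Ccne1 differences at -0.097, 0.092 and -0.0056 with 0 sites called. The cause was not tested for any of these shifts. What depth limits is not known, since the lists give none.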
